A study of Mus musculus with 8 samples.

Results

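Ribosome biogenesis genes encode the proteins that make, modify and assemble ribosomal RNA (rRNA) into ribosomal subunits. The list held 47 such genes, 6 of them for RNA polymerase I or its initiation factors, and was followed across 8 Affymetrix mouse expression arrays. A gene was measured by the probe sets that carry its symbol and no other in the probe annotation. Of the 47 genes 46 had such a probe set, and all 46 passed the expression minimum (a linear signal over 50 on 1 array or more), among 11940 genes tested. The exception was Mrto4, whose probe set (1423823_at) is also annotated to its pseudogenes Mrto4-ps1 and Mrto4-ps2. The 46 genes had 95 probe sets, of which 87 passed the minimum.

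All cells were V6.5 mouse embryonic stem cells (ESCs) infected with a lentivirus, and GFP+ cells were used. The same vector carried an always active shRNA against Wdr5 and a human WDR5 transgene, joined to GFP, whose expression needs doxycycline. WDR5 is an adaptor of the MLL complexes, which methylate histone H3 at lysine 4, and F266A changes a residue in a cleft of WDR5 that contacts long noncoding RNA. The 4 groups were WT +dox (wild-type transgene, 2 µg/mL doxycycline), WT -dox (same cells, no doxycycline), F266A +dox (mutant transgene, 2 µg/mL doxycycline) and F266A -dox (mutant line, no doxycycline), with 2 arrays each, labelled as biologic duplicates. No group had an untouched Wdr5 gene product, no group received doxycycline without a transgene, and each transgene was carried by its own infected population. The effects of the drug and of the transgene, and those of the mutation and of the population, therefore cannot be told apart.

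In the nucleolus RNA polymerase I transcribes a long precursor from the rRNA gene repeats. Small nucleolar ribonucleoproteins (snoRNPs) then modify it, box C/D particles by 2'-O-methylation and box H/ACA particles by pseudouridylation. Large sets of factors fold and cut it into the RNAs of the small and the large subunit. Ribosome output is known to rise with growth, and the transcription factor Myc is known to bind and raise many of these genes, which is why Myc was measured beside them. Proliferating ESCs are known for prominent nucleoli.

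Values below are log2 signals as deposited (RMA), and differences are log2 differences ± SE between groups of 2 arrays from a limma fit of all 8 arrays. A gene was called higher or lower at a Benjamini-Hochberg adjusted p under 0.05 over the 11940 genes of a comparison. Array medians lay between 5.36 and 5.39, and the median SE of a difference over all genes was 0.08. The arrays' number limits the precision, and log2 signals are compared between groups for a gene and never between genes. All 9 ESC markers examined were past the minimum, and their summed linear signal was highest for WT +dox (56980 to 57543), then WT -dox (53014 to 54131), F266A +dox (51119 to 51547) and F266A -dox (43016 to 45313). Of 8 fibroblast markers 1 passed, as did 2 of 6 for endoderm, 3 of 5 for trophectoderm, 5 of 5 for neural cells and 4 of 4 for mesoderm. A marker passed if at least 1 of its probe sets did, but the marker values given here average all its probe sets. Some that passed therefore read below the log2 minimum of 5.64 on every array. Examples are Map2 (at most 4.31), Pax6 (4.93), Gata6 (4.97) and Col1a2 (4.79). A further mesoderm marker, T, had no value under that symbol and was not counted. Some of these lists moved with the groups, though not every gene moved with its list. Of the ESC markers Zfp42, Tdgf1 and Utf1 read higher on both WT -dox arrays than on both WT +dox arrays. Nanog, Sox2, Esrrb, Dppa5a and Fgf4 read lower there, and Pou5f1 overlapped. The summed linear signal of the neural markers was 360 to 386 in WT +dox and 459 to 474 in WT -dox. It was 394 to 400.4 in F266A +dox and 461 to 502 in F266A -dox. Between WT +dox and WT -dox the log2 signal of Tubb3 went from 7.77 and 7.59 to 8.26 and 8.21. Nes and Pax6 also read higher in WT -dox and Map2 overlapped. Sox1 went the other way, from 5.99 and 6.16 to 5.70 and 5.72. The trophectoderm markers summed to 890.5 to 918 in WT +dox and 710.2 to 801 in the other groups, but they did not move as one. Tfap2c fell from log2 signals of 9.25 and 9.31 in WT +dox to 8.56 and 8.46 in F266A -dox. Eomes, Cdx2 and Gata3, the last below the minimum, read higher on both F266A -dox arrays than on both WT +dox arrays, and Elf5 overlapped. The mesoderm markers summed to 259 to 309 in F266A -dox and 217 to 234 elsewhere. The endoderm markers summed to 183 to 185 in F266A -dox and 151 to 166 elsewhere, and the fibroblast markers to 176 to 188 against 159 to 173. The probe sets annotated to Wdr5, the target of the shRNA, whose position relative to the shRNA site and likeness to the human transgene are not given in the sources used here, read 8.35 and 8.32 on the WT +dox arrays, 9.45 and 9.35 on those of WT -dox, 8.59 and 8.56 for F266A +dox and 9.31 and 9.27 for F266A -dox. This signal was thus higher in both -dox groups and does not check the knockdown, since all groups carry the shRNA. The part of these shifts in the results below was not tested.

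Across the 4 groups WT +dox held the lowest mean for 36 of the 46 genes, F266A +dox for 6 and F266A -dox for 4. The highest mean lay in F266A -dox for 23 genes, in WT -dox for 22 and in WT +dox for 1. The lowest and highest groups were not counted over all genes, so these numbers only describe the 46. Taking each gene against its own WT +dox mean, the median of the 46 differences was 0.20 and 0.25 for the 2 arrays of WT -dox, 0.18 and 0.11 for those of F266A +dox and 0.33 and 0.24 for those of F266A -dox. The shifts were small, and 0 of the 46 genes reached a called 2-fold change in any comparison. Such changes were also few among all 11940 genes. WT -dox minus WT +dox gave 88 higher and 74 lower, and F266A -dox minus WT +dox gave 400 and 253.

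**Figure D1:**
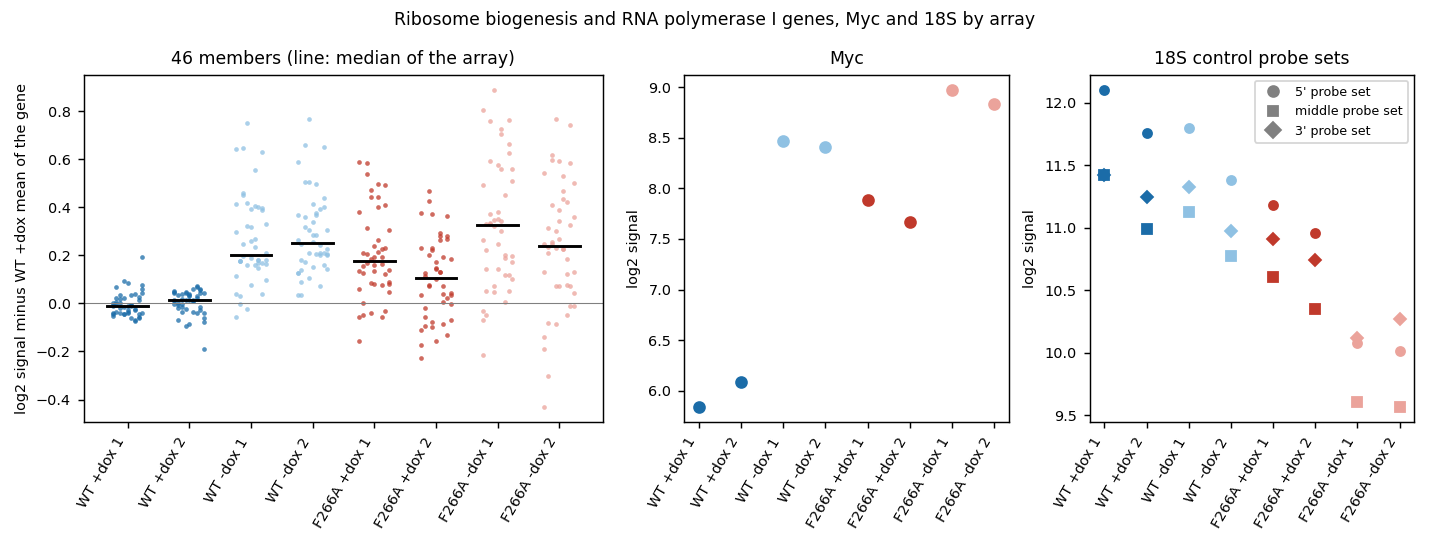
Log2 signal in each of the 8 arrays, for the 46 genes as the difference from the WT +dox mean of the gene (left, points are genes and the black line is the median of the array), for Myc (middle) and for the 3 probe sets of 18S rRNA (right). The median of the genes is lowest in the 2 WT +dox arrays and highest in the F266A -dox 1 array (0.33), Myc runs from 5.84 to 8.97, and the 18S signals go down to their lowest in F266A -dox.

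Myc read 5.84 and 6.09 on the WT +dox arrays, 8.47 and 8.41 on those of WT -dox, 7.88 and 7.67 for F266A +dox and 8.97 and 8.84 for F266A -dox. No 2 groups overlapped. Upon withdrawal Myc rose by 2.47 ± 0.10 in the WT line and by 1.13 ± 0.10 in the F266A line, and the 2 withdrawals differed by -1.35 ± 0.14 (limma, adjusted p = 0.00188). Myc was 1.81 ± 0.10 higher in F266A +dox than in WT +dox. The 18S rRNA control probe sets had their highest mean in WT +dox and their lowest in F266A -dox, the reverse of Myc. Between the other 2 groups the order was not reversed, since both Myc and 18S were lower in F266A +dox than in WT -dox. The 5' probe set of 18S read 12.10 and 11.76 on the WT +dox arrays, 11.80 and 11.38 on those of WT -dox, 11.18 and 10.96 for F266A +dox and 10.08 and 10.01 for F266A -dox. The WT +dox and WT -dox arrays overlapped there (-0.34 ± 0.16, adjusted p = 0.141), whereas F266A -dox lay below every other group (-1.88 ± 0.16 against WT +dox, adjusted p = 2.39e-05). The middle and 3' probe sets followed the same order and were also not called in the WT withdrawal. The labelling kit primes from poly(A) tails, which mature rRNA lacks, so this signal is not a measure of rRNA per cell.

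The first comparison asked how the genes respond when the wild-type transgene is switched off. In WT -dox 21 of the 46 genes (45.7%) were higher than in WT +dox and 0 were lower, against 16.1% of all 11940 genes higher and 15.4% lower. Their median difference was 0.22, with a range from -0.01 (Utp15) to 0.76 (Ddx21), beside a median of 0.00 over all genes. Of the 46, 45 had a difference above 0, and in 42 (91.3%) both WT -dox arrays lay above both WT +dox arrays, as they did in 34.7% of all genes. The arrays measure RNA of whole cultures, so a change in the share of a cell type and a change in RNA per cell cannot be told apart.

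Of the 4 genes with the largest rises, 3 act in large subunit assembly and the other is Polr1e. Ddx21, an RNA helicase that binds pre-rRNA and snoRNAs, went from 9.45 and 9.53 with doxycycline to 10.24 and 10.26 without it. The groups were far apart, by 0.76 ± 0.07 (limma, adjusted p = 0.000116), a 1.69-fold difference. Pes1, which forms the PeBoW complex with Bop1 and Wdr12, went from 8.61 and 8.53 to 9.22 and 9.23 (0.65 ± 0.08, adjusted p = 0.000299). Its partners were not called, Bop1 at 0.21 ± 0.10 and Wdr12 at 0.09 ± 0.09. Noc3l, a factor of nuclear pre-ribosome maturation, went from 7.84 and 7.95 to 8.54 and 8.49 (0.62 ± 0.10, adjusted p = 0.00209), and its relative Noc2l stayed at 0.15 ± 0.08 without a call. Rrs1 (0.41 ± 0.10), which helps to load the 5S particle, and Nop16 (0.39 ± 0.09) rose as well. So did Nip7 (0.28 ± 0.07) and Nop2 (0.27 ± 0.07), the latter a methyltransferase of the large subunit rRNA. Together 7 of the 12 measured large subunit genes rose, while Rrp1b (0.18 ± 0.08) and Ebna1bp2 (0.16 ± 0.07) were not called.

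Of the 15 genes for small subunit precursors 9 rose. Noc4l, a partner of Nop14, had the largest difference (0.53 ± 0.07), whereas Nop14 itself was not called (0.22 ± 0.09). Utp20, a large scaffold protein, went from 10.49 and 10.49 to 10.94 and 10.99 (0.48 ± 0.07, adjusted p = 0.000849). Heatr1 (0.46 ± 0.10), Wdr43 (0.40 ± 0.06) and Wdr75 (0.26 ± 0.07), which belong to the subcomplex that binds the nascent precursor first, rose as well. Utp15 of the same subcomplex did not move beyond its error (-0.01 ± 0.07). In the UtpB subcomplex Wdr3 rose (0.40 ± 0.06) and Wdr36 (0.10 ± 0.07) and Utp18 (0.04 ± 0.09) were not called. The late factors Bysl (0.40 ± 0.07), Rrp12 (0.39 ± 0.09) and Nob1 (0.32 ± 0.07), the last the nuclease that forms the end of 18S rRNA, all rose. Utp14a and the acetyltransferase Nat10 (both 0.21, SE 0.08 and 0.07) were not called.

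The box C/D proteins, namely the methyltransferase Fbl, the scaffolds Nop56 and Nop58 and the U3 protein Rrp9, had differences from 0.15 to 0.19, and 0 of 4 were called. Of the box H/ACA proteins Nop10 rose (0.31 ± 0.06). The pseudouridine synthase Dkc1 (0.12 ± 0.07), Nhp2 (0.18 ± 0.06) and Gar1 (0.19 ± 0.06) were not called. Among nucleolar scaffold and chaperone proteins Nolc1 (0.41 ± 0.09), the nucleolar GTPase Gnl3 (0.33 ± 0.07) and nucleolin, Ncl (0.28 ± 0.08), rose. The chaperone Npm1 was at 0.03 ± 0.07 (95% CI -0.12 to 0.19) and Tcof1 at 0.13 ± 0.08. Of the 21 calls in this comparison 9 ended in 1 to 4 alternative settings, mostly fits without 1 of the WT arrays. They were those of Wdr75 and Ncl (4 settings each), Nop2, Nop16 and Rrs1 (3 each), Nolc1, Nob1 and Nip7 (2 each) and Rrp12 (1), with an adjusted p of 0.128 at most.

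Of the 6 genes for RNA polymerase I and its initiation factors all had a difference above 0, from 0.08 to 0.64. Polr1e, a subunit particular to polymerase I, went from 8.03 and 8.0 to 8.64 and 8.66 (0.64 ± 0.07, adjusted p = 0.000185) and was the 1 gene of the 6 that was called. Polr1b, the second-largest subunit, gave 8.45 and 8.57 against 8.77 and 8.87, without overlap but just short of a call (0.32 ± 0.11, adjusted p = 0.0502). Polr1a, the largest and catalytic subunit, gave 7.48 and 7.54 against 7.58 and 7.66 (0.11 ± 0.07). Polr1c, which polymerases I and III share, gave 11.32 and 11.25 against 11.45 and 11.36 (0.12 ± 0.07). Neither difference passed the test. Rrn3, which recruits the polymerase to the promoter, gave 10.52 and 10.39 against 10.63 and 10.68 (0.20 ± 0.07, adjusted p = 0.0637). Ubtf, the architectural factor of the rRNA gene repeats, gave 8.54 and 8.57 against 8.59 and 8.68 (0.08 ± 0.11).

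**Figure D2:**
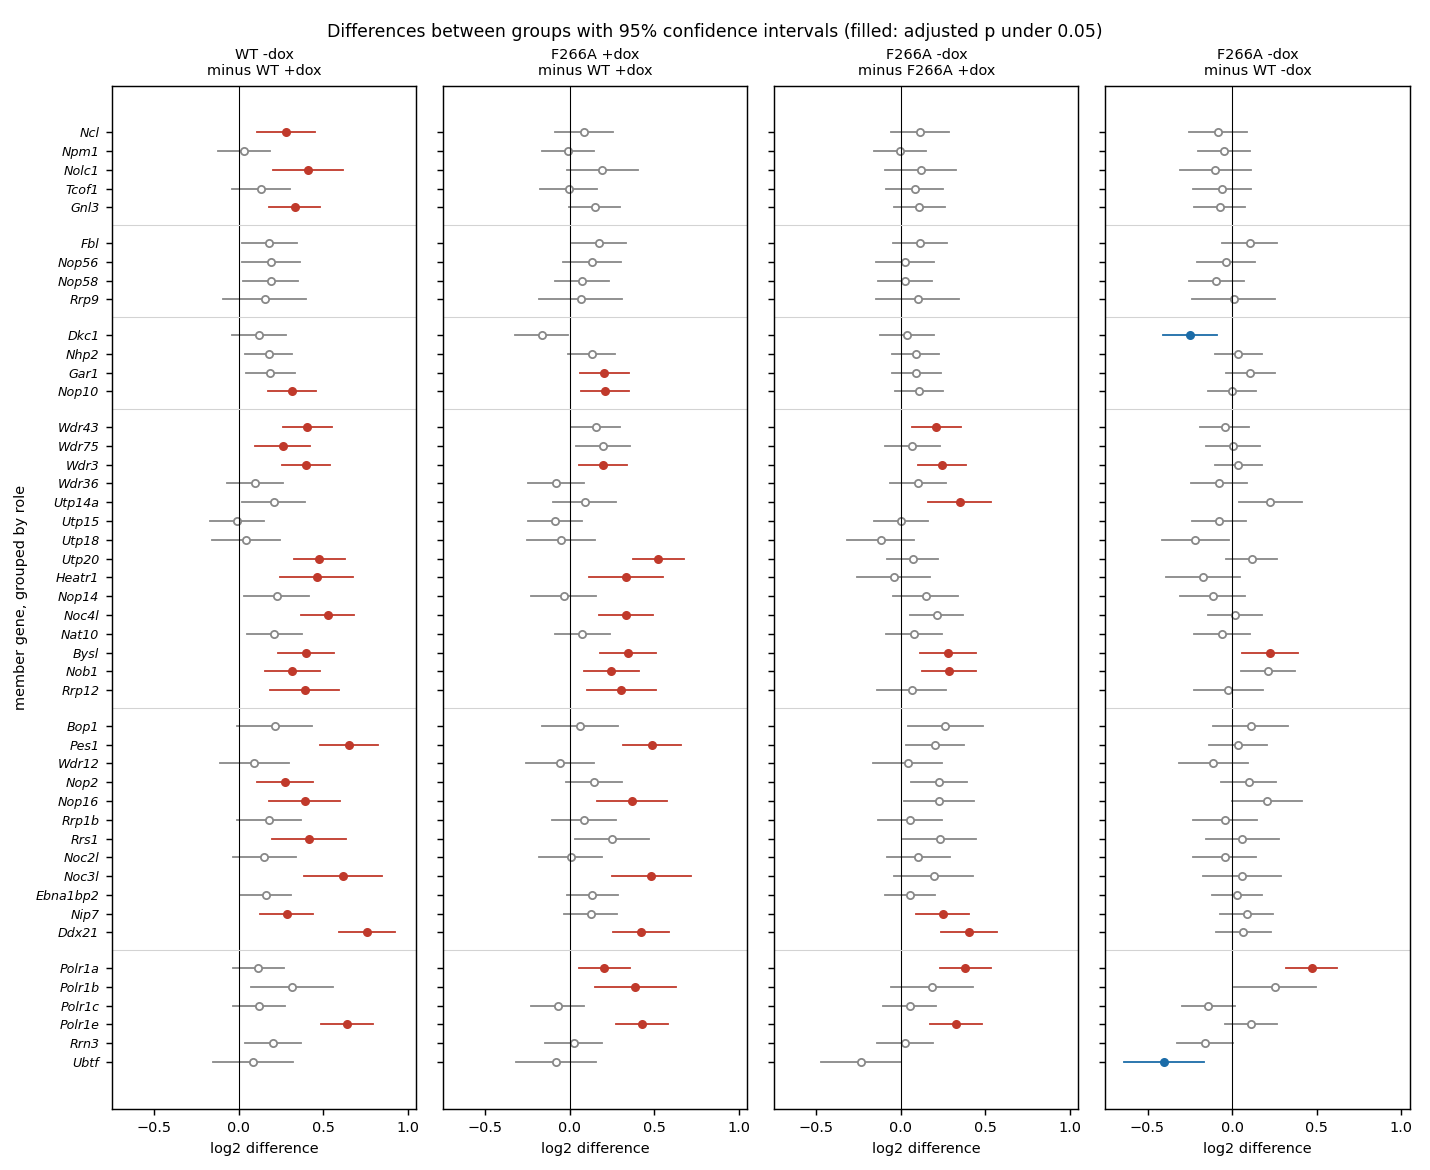
Log2 difference (point) with 95% confidence interval (line) of each of the 46 genes in 4 comparisons, grouped from top to bottom as scaffold and chaperone, box C/D, box H/ACA, small subunit, large subunit and polymerase I genes; filled points are called (red higher, blue lower). Filled points lie to the right of 0 in the first 3 comparisons (21, 16 and 9 genes), while the fourth holds 2 on either side.

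Genes made from several probe sets did not always give 1 value. Of the 32 members with several passing probe sets 28 had all differences of 1 sign in the WT withdrawal, and the median gap between the highest and lowest probe set was 0.13. The gap was largest for the genes that led the list. Noc3l differed by 0.95 ± 0.09 on 1426286_at and by 0.28 ± 0.15 on 1437500_at, Ddx21 by 1.07 ± 0.10 on 1448271_a_at and 0.45 ± 0.07 on 1448270_at, and Pes1 by 0.92 ± 0.08 on 1416173_at and 0.38 ± 0.08 on 1416172_at. Ncl ran from 0.52 ± 0.11 (1415772_at) to 0.15 ± 0.10 (1415773_at). For these 4 genes the size of the rise in this comparison thus depended on the probe set and its direction did not. Counted by probe set, 38 of 87 were higher and 0 lower. Over all 20046 passing probe sets with 1 gene symbol, each fitted on its own, 2867 were higher and 2640 lower. Of the 87 probe sets 7 end in _x_at and 9 in _s_at, which marks probes that may also bind related transcripts.

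**Figure D3:**
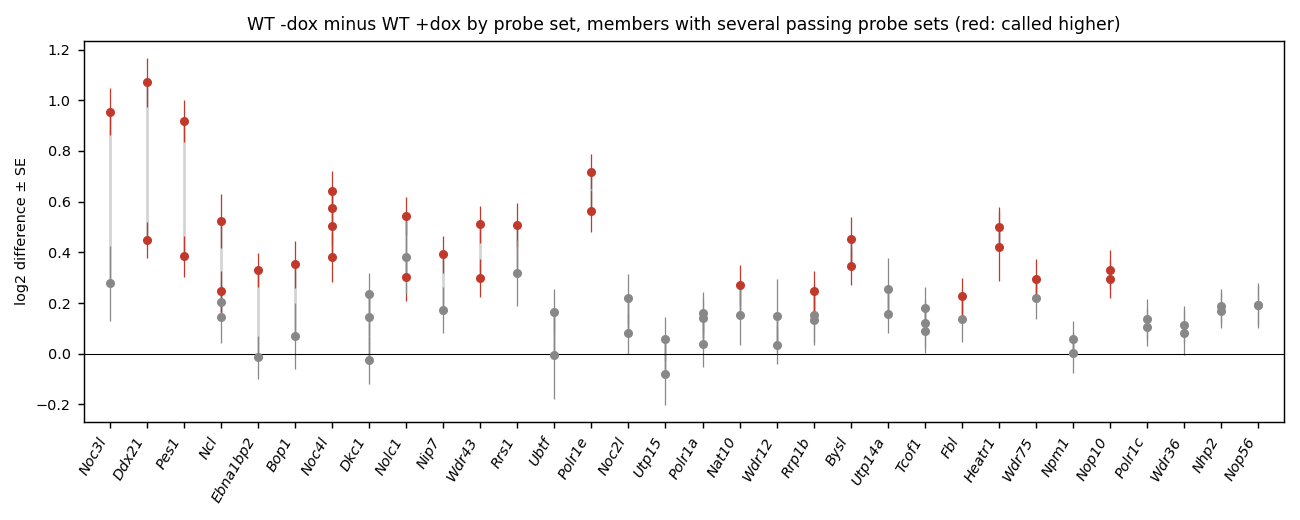
Log2 difference ± SE of each passing probe set between WT -dox and WT +dox, for the 32 genes with several passing probe sets, ordered by the gap between them; red points are called higher. Noc3l, Ddx21 and Pes1 show the widest gaps, and no probe set is called lower.

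Myc binds the E-box, of which CACGTG is the canonical form, so the promoters were searched for these letters. The windows were taken from RefSeq (GRCm38.p6) and run from 250 bases before to 50 after each transcription start, and 40 of the 47 genes had a window. The palindrome reads the same on both strands. It stood in 6 of the 40 genes (15.0%), against 11.8% of the 9640 tested genes with a window and 8.09% of all 27025 genes in the table. These 6 were Pes1, Utp20, Wdr43 and Nop2, which were called higher in WT -dox, and Utp18 and Rrn3, which were not called. Among members with a window it was present in 4 of 19 called genes (21.1%) and in 2 of 20 not called. The windows shown are those of 3 called genes with the motif, of the uncalled Rrn3, the 1 member shown with 2 copies, and of Ddx21, which had the largest rise and no copy. Sequences run 5′ to 3′ on the gene's strand (+ or -), and capitals mark CACGTG.
Pes1, chr11:3963725-3964024, +: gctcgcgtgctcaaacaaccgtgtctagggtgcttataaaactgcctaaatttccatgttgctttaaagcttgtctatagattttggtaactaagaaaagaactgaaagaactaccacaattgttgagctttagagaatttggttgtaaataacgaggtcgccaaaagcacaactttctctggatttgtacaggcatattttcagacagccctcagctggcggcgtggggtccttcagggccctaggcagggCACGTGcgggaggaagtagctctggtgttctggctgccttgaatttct
Utp20, chr10:88826765-88827064, -: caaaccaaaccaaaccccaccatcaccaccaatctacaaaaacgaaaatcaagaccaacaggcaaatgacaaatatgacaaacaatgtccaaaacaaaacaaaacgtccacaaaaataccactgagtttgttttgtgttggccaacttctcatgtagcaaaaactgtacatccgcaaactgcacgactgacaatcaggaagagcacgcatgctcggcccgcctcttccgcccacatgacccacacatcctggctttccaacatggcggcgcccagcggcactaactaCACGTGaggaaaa
Wdr43, chr17:71615965-71616264, +: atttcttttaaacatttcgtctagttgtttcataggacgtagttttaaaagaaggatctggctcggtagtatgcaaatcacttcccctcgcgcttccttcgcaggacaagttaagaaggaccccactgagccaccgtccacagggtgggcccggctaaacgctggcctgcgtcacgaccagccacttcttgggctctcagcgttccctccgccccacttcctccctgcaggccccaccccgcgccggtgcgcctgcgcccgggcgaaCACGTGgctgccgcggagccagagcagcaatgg
Rrn3, chr16:13780449-13780748, +: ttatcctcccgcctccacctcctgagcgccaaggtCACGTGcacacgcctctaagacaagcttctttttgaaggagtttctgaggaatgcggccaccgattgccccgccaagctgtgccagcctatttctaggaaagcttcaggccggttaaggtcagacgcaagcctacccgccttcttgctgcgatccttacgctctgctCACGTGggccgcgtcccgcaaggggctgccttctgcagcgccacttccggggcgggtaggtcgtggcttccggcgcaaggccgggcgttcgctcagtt
Ddx21, chr10:62602249-62602548, -: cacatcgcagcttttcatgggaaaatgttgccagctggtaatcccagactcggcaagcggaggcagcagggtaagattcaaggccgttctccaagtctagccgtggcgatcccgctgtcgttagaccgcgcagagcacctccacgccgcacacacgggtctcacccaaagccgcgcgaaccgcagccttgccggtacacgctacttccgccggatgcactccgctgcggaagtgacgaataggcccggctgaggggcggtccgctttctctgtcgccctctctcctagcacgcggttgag

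The motif starts at base 3 after the start site in Pes1, at 38 in Utp20 and at 18 in Wdr43, and at -215 and -48 in Rrn3. These matches describe letters in a window, and none of them is a measured binding site.

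The second comparison asked whether the mutant transgene leaves these genes at another level than the wild-type one while both are induced. In F266A +dox 16 of the 46 genes (34.8%) were higher than in WT +dox and 0 were lower, against 15.9% of all genes higher and 12.5% lower. The median difference was 0.14 (0.00 over all genes), and 36 of the 46 lay above 0. In 28 genes (60.9%) both F266A +dox arrays were above both WT +dox arrays and in 5 (10.9%) below them, compared with 34.1% and 31.5% of all genes. This comparison uses the same WT +dox arrays as the WT withdrawal, so their values stand side by side and are not independent.

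Utp20 had the largest difference, with 11.07 and 10.96 for the mutant against 10.49 and 10.49 for WT +dox (0.52 ± 0.07, limma, adjusted p = 0.000497). Pes1 followed with 9.11 and 9.0 against 8.61 and 8.53 (0.48 ± 0.08), and Noc3l with 8.49 and 8.27 against 7.84 and 7.95 (0.48 ± 0.10). The groups did not overlap for any of the 3. Polr1e gave 8.50 and 8.38 against 8.03 and 8.0 (0.43 ± 0.07), and Ddx21 gave 9.96 and 9.86 against 9.45 and 9.53 (0.42 ± 0.07). In Pes1, Ddx21 and Noc3l the call came from 1 of the 2 probe sets, since 1416172_at (0.16 ± 0.08), 1448270_at (0.14 ± 0.07) and 1437500_at (0.25 ± 0.15) were not called on their own.

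By role, 7 of 15 small subunit genes, 4 of 12 large subunit genes, 3 of 6 polymerase I genes and 2 of 4 box H/ACA genes were higher. None of the 5 scaffold and chaperone genes and none of the 4 box C/D genes were called, although Nolc1 (0.19 ± 0.09), Gnl3 (0.15 ± 0.07) and Fbl (0.17 ± 0.07) lay above 0. The small subunit genes called beside Utp20 were Bysl (0.34 ± 0.07), Noc4l (0.33 ± 0.07), Heatr1 (0.33 ± 0.10), Rrp12 (0.30 ± 0.09), Nob1 (0.25 ± 0.07) and Wdr3 (0.19 ± 0.06). Among large subunit genes Nop16 (0.37 ± 0.09) was called as well. In the box H/ACA particle Nop10 (0.21 ± 0.06) and Gar1 (0.20 ± 0.06) were higher, whereas Dkc1 was at -0.17 ± 0.07 (adjusted p = 0.109).

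Both large polymerase I subunits were higher here. Polr1b gave 9.0 and 8.78 against 8.45 and 8.57 (0.39 ± 0.11, adjusted p = 0.025), and Polr1a gave 7.75 and 7.68 against 7.48 and 7.54 (0.20 ± 0.07, adjusted p = 0.0469). The call of Polr1a ended in 15 alternative settings, and that of Polr1b without WT +dox 1 or F266A +dox 1 (adjusted p up to 0.175). Polr1c (11.23 and 11.20, -0.07 ± 0.07), Rrn3 (10.50 and 10.45, 0.02 ± 0.07) and Ubtf (8.62 and 8.33, -0.08 ± 0.11) were not called. Of the 16 calls 14 ended in at least 1 setting, those of Wdr3 in 13, Gar1 in 11 and Nop10 in 9, and the count depended on single arrays. It was 4 without the F266A +dox 1 array, 6 without WT +dox 1 and 8 without WT +dox 2, with 0 lower each time. The F266A +dox 1 array lay above its duplicate in 41 of the 46 genes (89.1%, median 0.10), as it did in 70.3% of all genes (median 0.05).

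**Figure D4:**
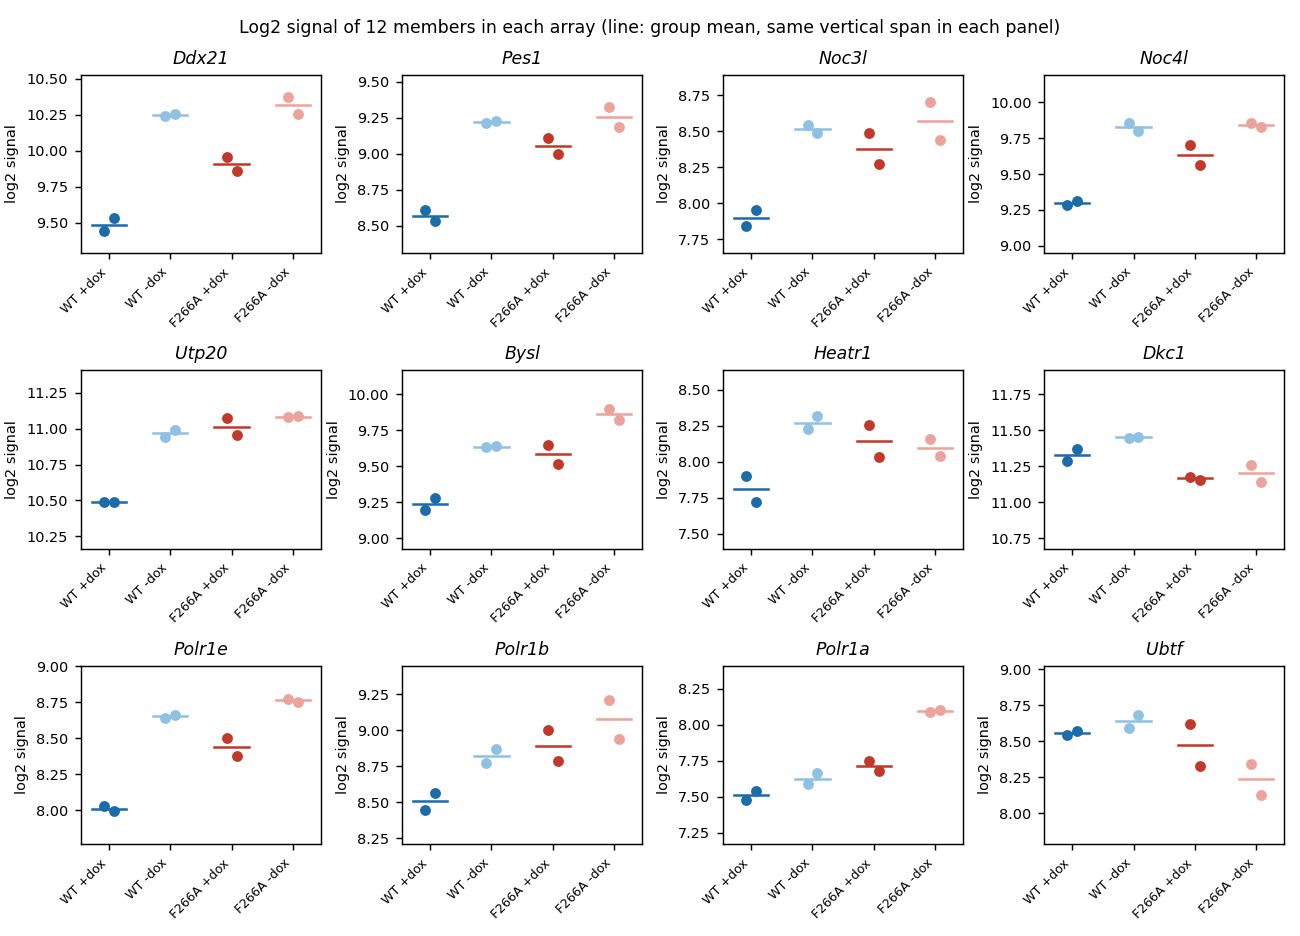
Log2 signal of 12 genes in each array (points) with the group mean (line), every panel spanning the same log2 range. Ddx21, Pes1, Noc3l, Noc4l, Utp20, Bysl, Heatr1, Polr1e and Polr1b have both WT +dox arrays below all other arrays, Polr1a stands apart in F266A -dox (8.09 and 8.10), and Ubtf and Dkc1 have lower means in the F266A line than in the WT line.

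The third comparison asked how the genes respond when the mutant transgene is switched off. In F266A -dox 9 of the 46 genes (19.6%) were higher than in F266A +dox and 0 were lower, against 8.94% of all genes higher and 10.6% lower. The median difference was 0.10, below that of the WT withdrawal, and 41 genes lay above 0. In 25 genes (54.3%) both F266A -dox arrays were above both F266A +dox arrays, as in 29.6% of all genes. The duplicates differed as well. The F266A -dox 1 array lay above F266A -dox 2 in 39 of the 46 genes (84.8%, median 0.08), against 54% of all genes (median 0.01). Ddx21 gave 10.37 and 10.26 against 9.96 and 9.86 (0.41 ± 0.07, limma, adjusted p = 0.00595). Polr1a gave 8.09 and 8.10 against 7.75 and 7.68 (0.38 ± 0.07), Utp14a gave 8.24 and 8.09 against 7.87 and 7.77 (0.35 ± 0.08), and Polr1e gave 8.77 and 8.75 against 8.50 and 8.38 (0.32 ± 0.07). All 4 were without overlap. The other called genes were Nob1 (0.29 ± 0.07), Bysl (0.28 ± 0.07), Nip7 (0.25 ± 0.07), Wdr3 (0.24 ± 0.06) and Wdr43 (0.21 ± 0.06). Of the 9 calls 8 ended in at least 1 alternative setting, those of Wdr43 in 13, Nip7 in 10, and Wdr3 and Bysl in 6 each. The called genes came from small subunit (5 of 15), large subunit (2 of 12) and polymerase I genes (2 of 6). Several genes that rose in the WT withdrawal hardly moved, among them Utp20 (0.07 ± 0.07), Heatr1 (-0.04 ± 0.10) and Rrp12 (0.07 ± 0.09). Of the remaining polymerase genes Polr1b (9.21 and 8.94, 0.18 ± 0.11), Polr1c (11.29 and 11.24, 0.05 ± 0.07), Rrn3 (10.55 and 10.44, 0.02 ± 0.07) and Ubtf (8.34 and 8.13, -0.24 ± 0.11) were not called. Without the F266A +dox 2 array 2 genes were called higher, and without F266A -dox 1 there were 3.

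Nob1 and Nip7 lie on chromosome 8 and Polr1a and Nop2 on chromosome 6, and genes of both chromosomes were shifted as a whole in the F266A line. The median difference between F266A -dox and F266A +dox was 0.12 over genes of chromosome 8 and 0.06 over those of chromosome 6, while the other chromosomes lay between -0.04 and 0.03. Between F266A -dox and WT -dox these medians were 0.15 and 0.05, with the others between -0.06 and 0.02. They were 0.09 and 0.06 between F266A +dox and WT +dox (others -0.03 to 0.03), and 0.20 and 0.12 between F266A -dox and WT +dox (others -0.06 to 0.05). The part of this shift in the values of Nob1, Nip7, Polr1a and Nop2 was not tested.

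The difference between the 2 withdrawals was itself tested as the interaction of line and withdrawal. It was below 0, that is smaller in the F266A line, in 41 of the 46 genes, with a median of -0.13 beside -0.01 over all genes. Called were 0 genes above 0 and 2 below, against 2.21% and 2.94% of all genes. These were Pes1 (-0.45 ± 0.11, limma, adjusted p = 0.0466) and Utp20 (-0.41 ± 0.10, adjusted p = 0.0436), and neither call held when most single arrays were left out. Heatr1 had the lowest value (-0.50 ± 0.14, adjusted p = 0.0691). Polr1a had the highest (0.27 ± 0.09, adjusted p = 0.143), with a larger rise in the F266A line that did not pass the test of the difference.

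Neither -dox group has its transgene induced, and between them few of the genes were called. Of the 46 genes 2 were higher in F266A -dox (4.35%) and 2 lower, against 14% and 13.4% of all genes, and the median difference was 0.00. Polr1a stood at 8.09 and 8.10 in the F266A line, compared with 7.58 and 7.66 for WT (0.47 ± 0.07, limma, adjusted p = 0.000915). Bysl gave 9.90 and 9.82 against 9.63 and 9.64 (0.22 ± 0.07, adjusted p = 0.0482), a call that ended under most alternatives. Ubtf was lower, with 8.34 and 8.13 against 8.59 and 8.68 (-0.40 ± 0.11, adjusted p = 0.0196), and so was Dkc1, with 11.26 and 11.14 against 11.44 and 11.45 (-0.25 ± 0.07, adjusted p = 0.0269). The groups did not overlap for any of these 4 genes. These small counts depended on single arrays. Without the F266A -dox 2 array 3 genes were higher and 0 lower, and without any other array 1 was higher, with 0 lower without WT -dox 2, 1 without WT -dox 1 and 3 without F266A -dox 1. The adjusted p of Dkc1 rose to as much as 0.149 and that of Ubtf to 0.122 when an array was left out. By probe set, Pes1 was split here, with 0.32 ± 0.08 on 1416173_at (adjusted p = 0.0234) and -0.25 ± 0.08 on 1416172_at (adjusted p = 0.0545). The Ncl probe set 1415773_at was lower (-0.35 ± 0.10, adjusted p = 0.038). Neither Ubtf probe set was called on its own, with -0.56 on 1460304_a_at and -0.25 on 1453097_a_at. The call of Ubtf ended with its highest-mean probe set. Myc (0.47 ± 0.10, adjusted p = 0.0529 without WT -dox 2) was called higher and all 3 probe sets of 18S were called lower in this comparison, in which the median of the 46 genes was 0.00. The arrays of F266A -dox lay above those of WT -dox in 16 genes (34.8%) and below them in 11 (23.9%), against 31.5% and 34.1% of all genes.

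The widest contrast was that of F266A -dox with WT +dox, in which line and withdrawal both differ. Here 28 of the 46 genes (60.9%) were higher and 1 was lower, against 25.9% of all genes higher and 25% lower. The median difference was 0.29, and both F266A -dox arrays lay above both WT +dox arrays in 36 genes (78.3%) and below in 4 (8.7%), compared with 37.9% and 36.8% of all genes. Ddx21 (0.83 ± 0.07, limma, adjusted p = 1.79e-05), Polr1e (0.75 ± 0.07), Pes1 (0.69 ± 0.08) and Noc3l (0.67 ± 0.10) had the largest differences. Bysl (0.62 ± 0.07), Nop16 (0.60 ± 0.09), Utp20 (0.59 ± 0.07), Polr1a (0.58 ± 0.07), Polr1b (0.57 ± 0.11), Noc4l (0.54 ± 0.07) and Nob1 (0.53 ± 0.07) followed. The probe sets of 2 of these were far apart, with 1.24 ± 0.08 and 0.13 ± 0.08 for Pes1 and 1.11 ± 0.09 and 0.24 ± 0.15 for Noc3l, of which the lower was not called in either. With its highest-mean probe set Pes1 was not called (adjusted p = 0.192). Counted by role, 10 of 15 small subunit genes, 9 of 12 large subunit genes, 3 of 4 box H/ACA genes, 3 of 6 polymerase I genes, 2 of 5 scaffold and chaperone genes and 1 of 4 box C/D genes were higher. Those not called in the preceding comparisons were Fbl (0.28 ± 0.07), Nhp2 (0.22 ± 0.06), Bop1 (0.32 ± 0.10) and Ebna1bp2 (0.19 ± 0.07). These calls ended in 2, 2, 3 and 9 alternative settings, with an adjusted p of up to 0.521 for Ebna1bp2. Ubtf was the gene called lower (-0.32 ± 0.11, adjusted p = 0.0285). Its fall rested on 1460304_a_at (-0.56 ± 0.18), since 1453097_a_at was at -0.08 ± 0.09, and without the F266A -dox 2 array it was at -0.22 (adjusted p = 0.175).

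**Figure D5:**
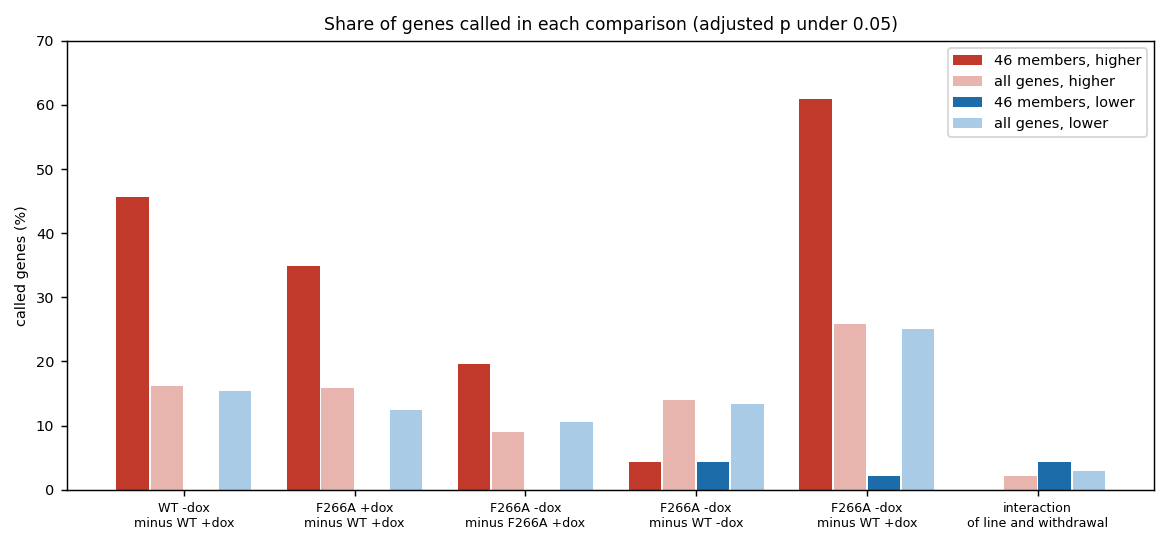
Percent of genes called higher (red) or lower (blue) at an adjusted p under 0.05 in each comparison, for the 46 genes (dark bars) beside all 11940 genes tested (pale bars). The share of called higher genes among the 46 is above that of all genes in 4 comparisons (45.7%, 34.8%, 19.6% and 60.9%) and below it between the 2 -dox groups (4.35%).

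In none of the 5 comparisons between groups were 15 genes called. How many of all genes were never called was not counted, so this number has no background to be read against. The 15 genes were Npm1, Tcof1, Nop56, Nop58, Rrp9, Wdr36, Utp15, Utp18, Nop14, Nat10, Wdr12, Rrp1b, Noc2l, Polr1c and Rrn3. A missing call does not show that such a gene was unchanged, since an interval such as that of Polr1c in the WT withdrawal (95% CI -0.04 to 0.28) still holds a modest rise.

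Further genes of the pathway were counted by the same test, to be read against the 16.1% of all genes called higher and 15.4% called lower. Of 42 other small subunit factors 24 (57.1%) were higher in WT -dox than in WT +dox and 0 lower, with Wdr46 (0.71 ± 0.13), Rrp7a (0.60 ± 0.08) and Ddx47 (0.56 ± 0.07) highest. Of 43 other large subunit factors 21 (48.8%) were higher and 1 lower, with Nifk (0.71 ± 0.06), Rrp8 (0.67 ± 0.07) and Ddx51 (0.63 ± 0.07) at the top and Nsa2 (-0.26 ± 0.07) as the exception. Genes of snoRNP assembly and the exosome, which trims rRNA precursors, were higher in 11 of 22 cases (50%) and lower in 0, among them Znhit3 (0.67 ± 0.08) and Ruvbl1 (0.56 ± 0.07). Of 10 other polymerase I subunits and factors 5 (50%) were higher and 1 (10%) lower. Cd3eap, the partner of Polr1e, rose most (0.68 ± 0.08), and Baz2a, a subunit of a complex that silences rRNA genes, fell (-0.37 ± 0.11). Of 24 tested genes for RNA polymerase III and for subunits shared between polymerases 9 (37.5%) were higher and 1 lower. The latter was Polr3gl (-0.67 ± 0.10), the counterpart of the alternative subunit Polr3g (0.30 ± 0.09), which was higher.

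In F266A +dox against WT +dox the same lists gave 16 higher and 0 lower of 42, 15 and 1 of 43, 5 and 0 of 22, 3 and 1 of 10, and 4 and 1 of 24. As shares called higher these are 38.1%, 34.9%, 22.7%, 30% and 16.7%, against 15.9% of all genes, so that the polymerase III list lay near the background. Cd3eap (0.57 ± 0.08) and Nifk (0.58 ± 0.06) were higher and Polr3gl lower (-1.03 ± 0.10), while Polr3g stayed at -0.02 ± 0.09. In the F266A withdrawal they gave 4 and 0, 4 and 0, 6 and 0, 2 and 2, and 0 and 0, or 9.52%, 9.3%, 27.3%, 20% and 0% higher against 8.94% of all genes. Both subunit factor lists were near the background there. Among 12 genes of the MYC family and its partners 3 (25%) were higher and 1 (8.33%) lower in the WT withdrawal, which with so few genes is near the background. Mycn, a paralog of Myc, rose by 0.42 ± 0.06 there, and Max, the partner both need to bind DNA, was at 0.11 ± 0.09 without a call.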

How the data were processed

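Total RNA was hybridised to 8 arrays in 4 groups of 2, with groups and replicate numbers read from the labels. The authors computed the deposited log2 values with RMA in R 2.11.1, which subtracts background, quantile-normalizes and summarises probes, so differences are relative to the bulk of the array. The values were not normalized again. The expression minimum and the averaging of probe sets into genes follow the study's methods. Of 45101 probe sets 34945 carried 1 gene symbol, of which 20046 passed the linear minimum of 50 and gave 11940 genes. Those with more symbols, or without any, were not analysed.

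The fit used limma 3.58.1 (R 4.3.3) with a mean for each of the 4 groups, 4 residual and 5.32 prior degrees of freedom, and 5 comparisons between groups plus the interaction. Tests were two-sided, and p-values were adjusted by Benjamini-Hochberg within a comparison over every gene. The authors' test, SAM, was not installed and not run here. The fit was run on simulated data with independent noise in each array. The planted changes were larger than most differences of the members, so it did not test calls of that smaller size. Python 3.11.15 was used for promoters and figures.

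The members, the pathway lists and the tests were chosen with earlier results of these data known. All members were accounted for by role. Array values are given for up to 4 called members with the largest rise and fall in a comparison, the polymerase I genes, Myc and 18S, and for each pathway list up to 3 called genes a direction. The arrays are described as biologic duplicates, but whether these were separate infections or cultures is not given in the sources used here, so p-values measure the spread between these arrays. The alternatives were another expression minimum or none, single probe sets or the brightest in place of the average, quantile normalization, median centring, the groups alone, a replicate block, another variance prior, array weights, a 2-fold threshold and leaving out each array. A crossed block was added after the data had been seen.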

Additional observations from a re-analysis of the deposited data

Results flagged for a closer look

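Withdrawal of doxycycline changed Pes1 and Utp20 differently in the 2 lines by the test of the interaction. Pes1 rose by 0.65 ± 0.08 in the WT line and was at 0.20 ± 0.08, without a call, in the F266A line. The difference was -0.45 (limma, adjusted p = 0.0466). In the F266A line its probe sets were split, with -0.03 on 1416172_at and 0.44 on 1416173_at. Neither probe set was called on its own in the interaction. Utp20 rose by 0.48 ± 0.07 in the WT line and was at 0.07 ± 0.07 in the F266A line, a difference of -0.41 (limma, adjusted p = 0.0436). Both genes were already higher in F266A +dox than in WT +dox, by 0.48 and 0.52. The call of Pes1 ended in 11 alternative settings and that of Utp20 in 10, most of them fits without 1 array.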

How the results depend on the processing

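Apart from the values that follow, the counts of called members stayed within 1.5 times the reported ones under the alternatives run. With a 2-fold threshold every count was 0, and few of all genes passed it (88 higher and 74 lower of 11940 in the WT withdrawal). With no expression filter F266A +dox minus WT +dox gave 8 higher members, the F266A withdrawal 4, F266A -dox minus WT -dox 1 higher and the interaction 0. With each probe set on its own the F266A withdrawal gave 14 members and the interaction 0. With the compared groups alone the F266A withdrawal gave 5 and F266A -dox minus WT -dox 1 higher and 1 lower. A trended and robust variance prior gave 1 lower in F266A +dox minus WT +dox, 14 higher in the F266A withdrawal, 5 higher and 4 lower in F266A -dox minus WT -dox, 3 lower in F266A -dox minus WT +dox and 8 below 0 in the interaction. With the highest-mean probe set F266A -dox minus WT -dox gave 1 higher and F266A -dox minus WT +dox 0 lower, and quantile normalization gave 2 lower in the latter. After median centring F266A -dox minus WT -dox gave 1 higher and the interaction 1. Pes1 in F266A -dox minus WT -dox changed sign with its highest-mean probe set (-0.25, adjusted p = 0.0376 by limma).

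Leaving out 1 array at a time gave 14 to 22 higher members in the WT withdrawal, 4 to 15 in F266A +dox minus WT +dox, 2 to 9 in the F266A withdrawal, 1 to 3 higher and 0 to 3 lower in F266A -dox minus WT -dox, 21 to 28 higher and 0 to 2 lower in F266A -dox minus WT +dox, and 0 to 1 in the interaction. The group of the missing array then rests on 1 array, assumed to vary like the others. Same-numbered arrays deviated together within a line (r = 0.13 and 0.16 over genes) but not between lines (-0.18 to -0.11), so the numbers were not taken as pairs. With the replicate number as a block F266A -dox minus WT -dox gave 1 higher and the interaction 0, and the other counts of called higher members were 21, 12, 7 and 27. A crossed block, chosen after seeing the data, gave 27, 17, 10, 3 and 29 higher members and 3 below 0 in the interaction. Over the single members and Myc, 4710 values kept direction and side of the threshold, 214 lost a call, 104 gained 1 and 1 reversed. The cause of these changes was not tested. Background correction could not be varied, since the values are already summarised.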
